A study of Mus musculus with 24 samples.

Results

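H19 and Igf2 are 2 imprinted genes that lie side by side on distal mouse chromosome 7, and they were taken by their symbols from both deposited tables of poly(A) RNA-seq data, as 2 genes of 23095 in the J1 table and of 25476 in the tet-off table. They were chosen by their measured levels in these libraries, so their levels and differences are given below as a description with no test. The 24 libraries fall into 12 groups of 2 replicates. Of these, 6 libraries come from J1, a wild-type mouse embryonic stem cell (ESC) line kept in serum medium with LIF and 2 inhibitors (2i), and from the D-EPSCs and L-EPSCs that were converted from it. EPSCs are expanded potential stem cells, and D and L name the culture protocols (in the labels Deng and Liu).

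The other 18 libraries come from 3 tet-off ESC lines, ZHBTc4 (Oct4-cKO), 2TS22C (Sox2-cKO) and NgcKO (Nanog-cKO), each as ESCs, as L-EPSCs without doxycycline (Dox) and as L-EPSCs with Dox. In each line both endogenous copies of the named gene were removed, also in the ESCs that serve as controls, and a transgene that Dox turns off stands in for it. Each line is a single line, so a difference between lines cannot be told apart from a difference between clones. How long Dox was given to the sequenced cells is not given in the sources used here. Dox is labelled only for L-EPSCs that carry such a transgene, and no J1 or ESC library is labelled with it. An effect of Dox itself therefore cannot be told apart from an effect of turning off the transgene. Nothing says that the 2 replicates of a group were separate derivations, so the spread between them may be technical.

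H19 makes a long noncoding RNA that is expressed from the maternal chromosome, and Igf2 makes insulin-like growth factor 2, a fetal and placental growth factor that is expressed from the paternal one. A control region upstream of H19 is methylated on the paternal chromosome. Both genes draw on a shared set of enhancers beyond H19 in mesoderm, endoderm and the placenta. On the maternal chromosome the control region is bound by CTCF, which keeps these enhancers away from Igf2. The libraries hold no allele information, so the parental origin of the RNA was not measured.

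In NCBIM37, the build on which the authors counted, H19 (ENSMUSG00000000031) lies at chr7:149761434-149764048 and Igf2 (ENSMUSG00000048583) at chr7:149836673-149852721, both on the minus strand and 72624 bp apart. The annotation gives H19 5 transcripts with 2372 bp of exon in all, and Igf2 9 transcripts with 5493 bp. An exon of H19 holds Mir675, whose hairpin is cut from the H19 transcript. Its mature products are shown because reads of the host RNA are counted as H19, while the mature miRNAs carry no poly(A) tail and were not measured. The sequences are those of RefSeq (GRCm38.p6), with the seed, bases 2 to 8, in capitals.
mmu-miR-675-5p: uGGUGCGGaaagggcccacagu
mmu-miR-675-3p: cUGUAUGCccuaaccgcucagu
The seeds of the 2 arms differ, GGUGCGG for the 5p arm and UGUAUGC for the 3p arm.

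The stretch between 2000 and 4000 bp upstream of the H19 start (chr7:149766048-149768047 in NCBIM37), where the control region is known to lie, was searched on both strands for the core of the CTCF motif, CGNGGNGGC. It held 3 matches, all on the minus strand. Of 70879 windows of 2000 bp that tile chromosome 7, 6.33% held at least 1 match and 0.141% held 3 or more. The matches are given with 8 flanking bases on each side and the motif in capitals, from the lowest coordinate up. They are shown because CTCF is known to bind this control region, and whether it uses these matches was not examined.
chr7:149766208-149766232: cgatgccgCGTGGTGGCagtacaat
chr7:149766663-149766687: tgctaccgCGCGGTGGCagcatact
chr7:149767933-149767957: agttgccgCGTGGTGGCagcaaaat
A match is a description of these letters, and no binding or methylation was measured in the libraries used here.

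Values are gene counts that the authors divided by the size factor of each library (normalized counts), and each library held between 10807631 and 15069899 reads on genes. The tables were normalized separately, so levels are compared within a table only. The gene that each line can turn off was lower in its Dox libraries. Pou5f1, which encodes Oct4, stood at 6420 and 6316 normalized counts without Dox and at 162 and 184 with Dox in Oct4-cKO L-EPSCs. Sox2 stood at 4966 and 4701 without Dox and at 47.0 and 53.2 with Dox in Sox2-cKO L-EPSCs. Nanog stood at 9119 and 8847 without Dox and at 3166 and 3112 with Dox in Nanog-cKO L-EPSCs. More Nanog RNA thus remained with Dox than Pou5f1 or Sox2 RNA did. Reads of the transgene can be counted on the gene, and the study reports that Nanog protein was lost with Dox.

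**Figure D1:**
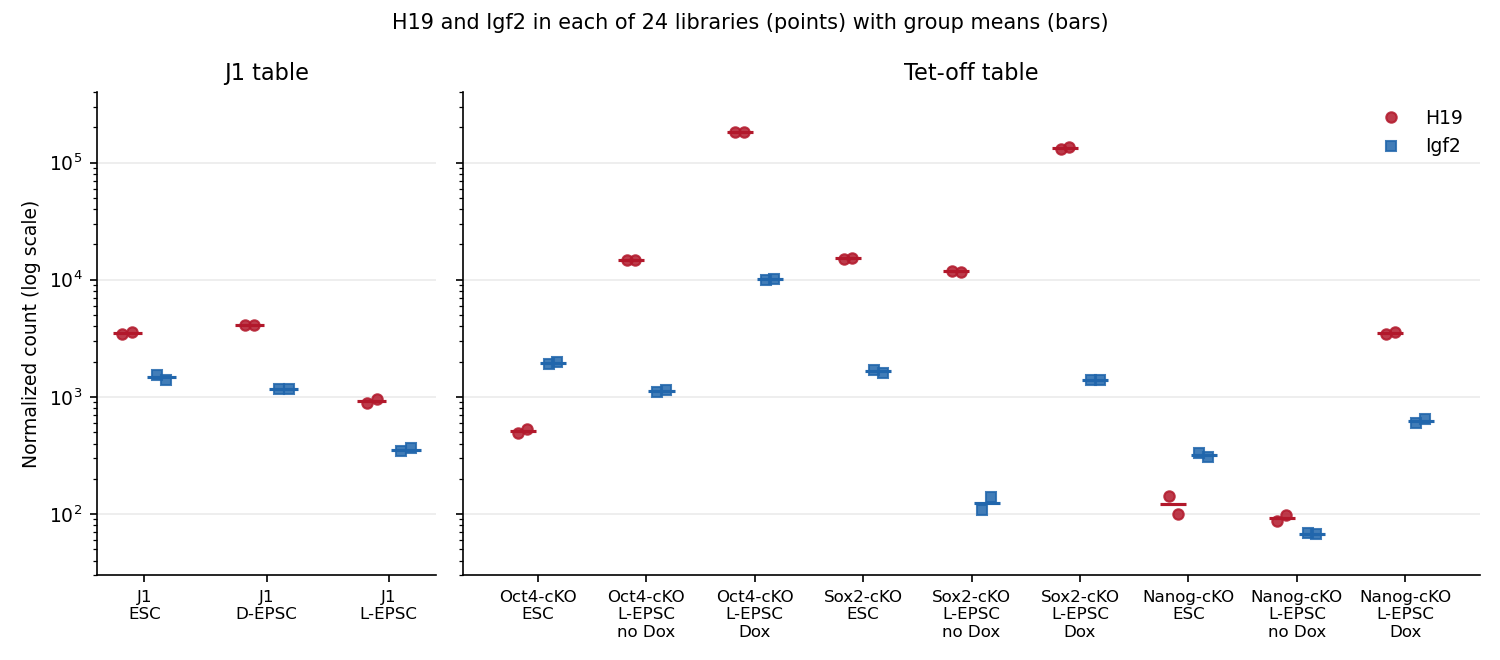
Normalized counts (log scale) of H19 (circles) and Igf2 (squares) in each of 24 libraries, with a bar at each group mean. Replicates lie close together, H19 reaches 182665 with Dox in the Oct4-cKO line, and the lowest values of both genes are those of Nanog-cKO L-EPSCs without Dox.

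With Dox, H19 was higher in all 3 lines, and its level spanned orders of magnitude between them. In Oct4-cKO L-EPSCs H19 stood at 14778 and 14797 normalized counts without Dox and at 182665 and 181419 with Dox. In Sox2-cKO L-EPSCs it stood at 11794 and 11731 without Dox and at 130738 and 135723 with Dox. In Nanog-cKO L-EPSCs it stood at 87.3 and 98.9 without Dox and at 3447 and 3601 with Dox. Both Dox libraries lay above both untreated libraries in every line. In bulk RNA, more cells of a type that makes H19 and more H19 RNA per cell cannot be told apart.

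The ratio of the group means was 12.3 in the Oct4-cKO line, 11.3 in the Sox2-cKO line and 37.8 in the Nanog-cKO line. On the log2(normalized count + 1) scale the differences were 3.62 ± 0.10, 3.50 ± 0.10 and 5.23 ± 0.10 (standard error of the limma fit over 18 libraries, 2 in each group). The largest ratio thus belonged to the line with the lowest level, and the added amount was ordered otherwise, with 167254 normalized counts in the Oct4-cKO line, 121468 in the Sox2-cKO line and 3431 in the Nanog-cKO line. H19 had the highest log2 difference of all 24007 genes tested in the Nanog-cKO line. It ranked 118 in the Oct4-cKO line and 81 in the Sox2-cKO line. In these comparisons 8.53% (Oct4-cKO), 7.79% (Sox2-cKO) and 2.80% (Nanog-cKO) of all genes were called higher with Dox. A call needed a log2 fold change beyond 1 and, in the limma fit, an adjusted p below 0.05.

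The share of the library shows how abundant the RNA became. H19 took 1.468% of the reads on genes in the first Dox library of the Oct4-cKO line (95% exact binomial interval 1.461 to 1.475, counting error only) and 1.453% in the second (1.446 to 1.460). It had the highest normalized count of all genes in both, and the second highest in both Dox libraries of the Sox2-cKO line, where it took 1.081% (1.076 to 1.087) and 1.122% (1.116 to 1.127). In the Nanog-cKO line with Dox it took 0.02835% (0.02747 to 0.02925) and 0.02951% (0.02850 to 0.03055), ranking 574 and 548. Without Dox H19 ranked 73 in both Oct4-cKO and 103 in both Sox2-cKO libraries, and 9863 and 9638 in the Nanog-cKO ones.

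Igf2 was higher with Dox in the same 3 lines. In Oct4-cKO L-EPSCs it stood at 1107 and 1150 normalized counts without Dox and at 10026 and 10103 with Dox. In Sox2-cKO L-EPSCs it stood at 108 and 140 without Dox and at 1392 and 1388 with Dox. In Nanog-cKO L-EPSCs it stood at 69.2 and 67.3 without Dox and at 598 and 649 with Dox. Again no Dox library overlapped with an untreated one. The ratios of the means were 8.92, 11.2 and 9.13, and the log2 differences were 3.16 ± 0.09, 3.49 ± 0.09 and 3.17 ± 0.09 in the Oct4-, Sox2- and Nanog-cKO lines. By log2 difference Igf2 ranked 202, 84 and 25 of 24007 genes. Its level with Dox exceeded that of the ESCs of the same line in the Oct4-cKO line (10065 against 1958 on average) and in the Nanog-cKO line (623 against 320), and it stayed below that of the ESCs in the Sox2-cKO line (1390 against 1649).

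**Figure D2:**
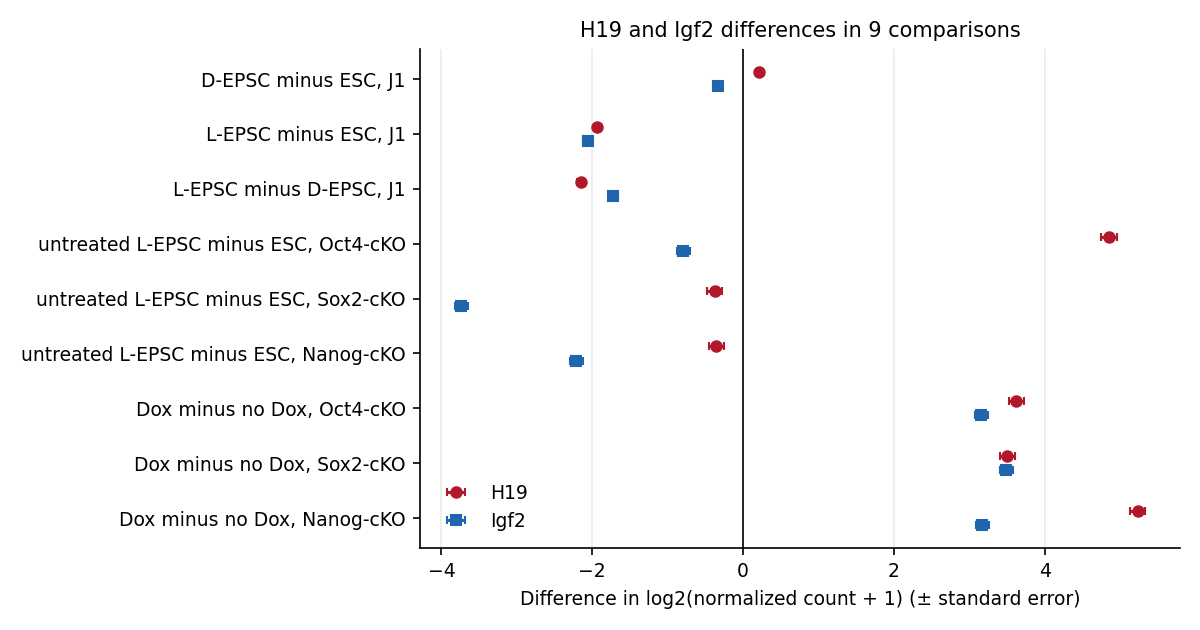
Difference in log2(normalized count + 1) between the groups named on the vertical axis for H19 (circles) and Igf2 (squares), with the standard error of the limma fit. Both genes are higher with Dox in every line, Igf2 is lower in L-EPSCs than in ESCs in all 4 lines, and H19 at the conversion runs from -1.93 in J1 to 4.85 in Oct4-cKO.

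At the conversion of ESCs to untreated L-EPSCs the genes changed by different amounts in the tet-off lines. Their directions were opposite in the Oct4-cKO line only. Igf2 was lower in the L-EPSCs of each tet-off line. It stood at 1922 and 1995 normalized counts in Oct4-cKO ESCs, with a log2 difference of -0.80 ± 0.09 in the L-EPSCs. It stood at 1707 and 1590 in Sox2-cKO ESCs, where the difference was -3.73 ± 0.09, rank 48 from the lowest of 24007 genes. It stood at 330 and 309 in Nanog-cKO ESCs, where the difference was -2.21 ± 0.09. As a ratio of means the Igf2 level of the ESCs was 1.74, 13.3 and 4.69 times that of the L-EPSCs. The libraries of the 2 states did not overlap in any of the lines. Of all genes, 15.4% (Oct4-cKO), 11.6% (Sox2-cKO) and 14.7% (Nanog-cKO) were called lower in L-EPSCs, where a log2 fold change beyond 0.6 was asked for.

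H19 was higher in L-EPSCs in the Oct4-cKO line only. In Oct4-cKO ESCs it stood at 497 and 528 normalized counts, and the L-EPSCs held 28.9 times as much, a log2 difference of 4.85 ± 0.10 and rank 41 from the highest. In Sox2-cKO ESCs it stood at 15034 and 15469, and the L-EPSCs were lower by a log2 difference of -0.37 ± 0.10. In Nanog-cKO ESCs it stood at 142 and 99.8, and the L-EPSCs, at 87.3 and 98.9, were lower by -0.35 ± 0.10. The H19 libraries of the 2 states did not overlap in any line, in the Nanog-cKO line by the narrowest margin, and there the difference was smaller than 2 standard deviations between replicates (0.27 on the log2 scale). That difference was -0.10 without the first Nanog-cKO ESC library and -0.61 without the second. Genes called higher in L-EPSCs made up 13.0% of those tested in the Oct4-cKO, 7.99% in the Sox2-cKO and 12.2% in the Nanog-cKO line.

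Over the 9 tet-off groups the mean level of H19 spanned a 1955-fold range and that of Igf2 a 147-fold range. From the highest down, H19 was ordered as Oct4-cKO L-EPSCs with Dox, Sox2-cKO L-EPSCs with Dox, Sox2-cKO ESCs, untreated Oct4-cKO L-EPSCs, untreated Sox2-cKO L-EPSCs, Nanog-cKO L-EPSCs with Dox, Oct4-cKO ESCs, Nanog-cKO ESCs and untreated Nanog-cKO L-EPSCs. Neighbours in this order differed by more than 2 standard deviations between their replicates except for the last pair. Sox2-cKO ESCs and untreated Oct4-cKO L-EPSCs were close, with 15252 ± 308 and 14788 ± 13.6 normalized counts (SD, n = 2). Their log2 difference of 0.044 is smaller than the limma standard errors given above for H19, so by that measure their order is open. Igf2 was ordered as Oct4-cKO L-EPSCs with Dox, Oct4-cKO ESCs, Sox2-cKO ESCs, Sox2-cKO L-EPSCs with Dox, untreated Oct4-cKO L-EPSCs, Nanog-cKO L-EPSCs with Dox, Nanog-cKO ESCs, untreated Sox2-cKO L-EPSCs and untreated Nanog-cKO L-EPSCs, and each neighbouring pair differed by more than 2 standard deviations. The ESCs of the 3 lines, which share a culture state, thus differed 126-fold in H19 and 6.12-fold in Igf2.

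To compare the genes with each other, normalized counts were divided by the length of all exons of the gene. The ratio of H19 to Igf2 per kb of exon does not depend on the scaling of a library. In Oct4-cKO cells it was 0.606 ± 0.010 (SD, n = 2) in ESCs, 30.4 ± 0.80 in untreated L-EPSCs and 41.9 ± 0.43 with Dox. In Sox2-cKO cells it was 21.5 ± 1.5, 224 ± 41 and 222 ± 6.3. In Nanog-cKO cells it was 0.872 ± 0.18, 3.16 ± 0.34 and 13.1 ± 0.35. The ratio was higher in untreated L-EPSCs than in ESCs in every line. With Dox it differed by less than the spread between replicates in the Sox2-cKO line, where both genes were higher by nearly the same factor, and it was higher in the Oct4-cKO and Nanog-cKO lines. Of the 12 groups, Oct4-cKO and Nanog-cKO ESCs were the ones that held less H19 than Igf2 per length on average.

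**Figure D3:**
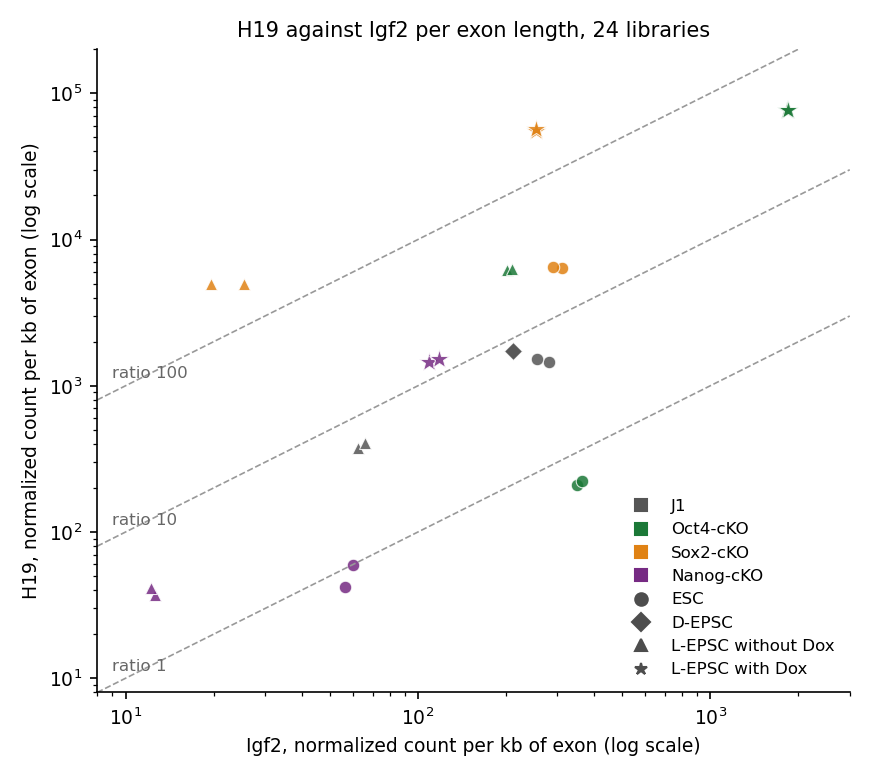
H19 against Igf2 in normalized counts per kb of exon (both axes on log scales) in 24 libraries, coloured by line and shaped by state, with dashed lines of equal ratio at 1, 10 and 100. Dox moves the points along the lines of equal ratio in Sox2-cKO, and conversion moves them across these lines in the tet-off lines.

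In J1 both genes were lowest in L-EPSCs. H19 stood at 3458 and 3611 normalized counts in ESCs, at 4130 and 4086 in D-EPSCs and at 886 and 965 in L-EPSCs. Igf2 stood at 1547 and 1405 in ESCs, at 1166 and 1165 in D-EPSCs and at 343 and 363 in L-EPSCs. The libraries of no 2 states overlapped for either gene. In L-EPSCs against ESCs the log2 difference was -1.93 ± 0.05 for H19 and -2.06 ± 0.06 for Igf2, where 8.80% of genes were called higher and 11.5% lower. In L-EPSCs against D-EPSCs the differences were -2.15 ± 0.05 and -1.72 ± 0.06, where 4.80% were called higher and 8.58% lower. D-EPSCs differed little from ESCs, with 0.22 ± 0.05 for H19 and -0.34 ± 0.06 for Igf2, where 10.8% were called higher and 9.98% lower. The ratio per kb of exon was 5.56 ± 0.55 in ESCs, 8.16 ± 0.056 in D-EPSCs and 6.07 ± 0.13 in L-EPSCs, so ESCs and L-EPSCs differed by less than the spread between the ESC libraries.

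The J1 libraries also held RNA of fibroblast marker genes. The culture protocols give mouse embryonic fibroblast feeders or gelatin for ESCs and L-EPSCs, and the study's methods state that EPSCs of both kinds were passaged without feeders before sequencing. Which of these surfaces the sequenced ESCs grew on is not given in the sources used here. All 10 fibroblast markers were detected in every J1 library, and their summed normalized counts were 102204 to 104354 in ESCs, 65231 to 65437 in D-EPSCs and 25070 to 25544 in L-EPSCs. Col1a1, a chain of type I collagen, alone reached 45291 in ESCs on average. Macrophage markers, all 7 of them detected, summed to 2525 to 2564 in ESCs, 21795 to 22146 in D-EPSCs and 16390 to 16541 in L-EPSCs. The fibroblast sum was lowest in L-EPSCs, as H19 and Igf2 were. All 10 markers had a lower mean in L-EPSCs than in D-EPSCs. Against ESCs the markers did not all move alike. In L-EPSCs 9 of 10 markers had a lower mean than in ESCs, and Col6a3 a higher one (2577 against 1804). In D-EPSCs 5 of 10, Col6a3, Dcn, Lum, Pdgfrb and Thy1, had a higher mean than in ESCs, and the mean log2 level of the list was 11.47 to 11.49 in D-EPSCs and 11.46 to 11.47 in ESCs. The part of these cells in the J1 values was not tested. Of the 10 fibroblast markers 9 are listed for the tet-off lines, their sum lay between 252 and 768 in all 18 libraries, and Lum was at 0 in both libraries of 8 of the 9 groups.

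In the tet-off lines the summed level of markers of the trophoblast, the lineage that forms much of the placenta, was higher with Dox in each line, to very different extents. Of the 9 markers listed of 10, all 9 were detected in both Dox libraries of the Oct4-cKO line, and their sum was 1177 to 1216 in Oct4-cKO ESCs, 3004 to 3046 in untreated L-EPSCs and 16406 to 16684 with Dox. In the Sox2-cKO line the sums were 3104 to 3181, 1343 to 1355 and 6857 to 6980. In the Nanog-cKO line they were 425 to 461, 519 and 571 to 613, with Tpbpa at 0 in all 6 libraries. The keratin gene Krt18 made up most of the sum in Oct4-cKO cells with Dox (11452 on average), while Cdx2, a defining factor of the trophectoderm, reached 59.3 there. With Dox 8 of the 9 listed markers had a higher mean in the Oct4-cKO line, where Hand1 was lower, and 7 in the Sox2-cKO line, where Eomes and Hand1 were lower. In the Nanog-cKO line 5 had a higher mean, while Cdx2, Eomes and Plet1 were lower, and Krt18 had a mean of 227 without and 317 with Dox. The mean log2 level of the list overlapped there between libraries without Dox (4.06 to 4.50) and with Dox (4.43 to 4.56). The sum of pluripotency markers, all 10 of them detected, was 54902 to 56196 without and 7619 to 7791 with Dox in the Oct4-cKO line, 59997 to 60222 and 13748 to 14103 in the Sox2-cKO line, and 61581 to 62189 and 39296 to 40781 in the Nanog-cKO line. Primitive endoderm markers, at least 8 of 10 detected in each group, summed to 884 to 4250 over the 18 libraries, and mesoderm markers, of which 6 are listed, to 11.6 to 58.6. The primitive endoderm sum was lower with Dox in each line. It was 2537 to 2672 without and 1495 to 1585 with Dox in the Oct4-cKO line. In the Nanog-cKO line it was 981 to 994 and 884 to 902. Of the 10 markers 4 (Oct4-cKO), 5 (Sox2-cKO) and 4 (Nanog-cKO) had a higher mean with Dox. Of the 6 mesoderm markers 0, 1 and 2 did. The macrophage sum was 183 to 759, most of it Cd68, with group means from 184.5 in Oct4-cKO ESCs to 735.4 in Nanog-cKO ESCs. At most 3 of the 6 macrophage markers listed were detected in both libraries of a tet-off group. In J1 the trophoblast sum was 99.1 to 632, that of primitive endoderm 979 to 1866 and that of mesoderm 35.7 to 151, and the pluripotency sum was 81680 to 82315 in ESCs, 45861 to 46231 in D-EPSCs and 57528 to 57711 in L-EPSCs. The part of these cells in the H19 and Igf2 values was not tested.

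**Figure D4:**
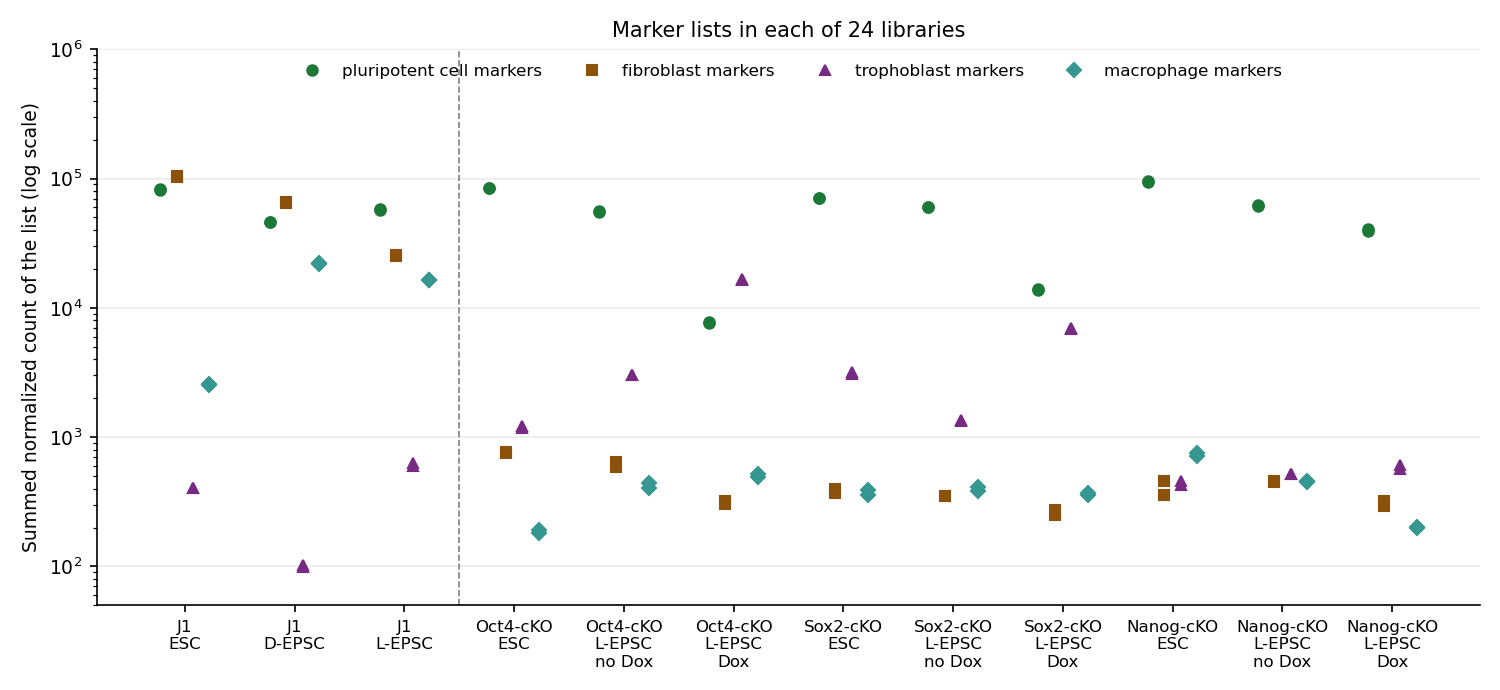
Summed normalized counts (log scale) of 4 marker lists in each of 24 libraries, with a dashed line between the separately normalized tables. Fibroblast markers are high in the J1 libraries alone, and trophoblast markers are highest in Oct4-cKO L-EPSCs with Dox, where they reach 16684.

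The genes whose pattern over the 9 tet-off groups was most like that of H19, by Pearson's r of log2 group means among 10029 other genes with a mean of at least 100, were Plac1 (r = 0.984), Magea9 (r = 0.982) and Serpinb9e (r = 0.982). Plac1 is known for its expression in the placenta. Its mean level was 12.5 in Oct4-cKO ESCs, 138 in untreated L-EPSCs and 3303 with Dox, and in the Nanog-cKO line it was 2.17, 1.04 and 55.1. For Igf2 the most alike were Arhgdib (r = 0.934), Prkch (r = 0.933) and Tlk2 (r = 0.928). H19 and Igf2 themselves had an r of 0.641, which placed Igf2 at rank 1680 for H19. The 9 groups share lines and libraries, so these values only describe how alike the log2 levels ran over these groups.

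Other genes of the same stretch of chromosome 7 were taken from a list of 19 neighbours, of which 17 are listed in the tet-off table and all 17 were tested. With Dox 7 were called higher and 1 lower in the Oct4-cKO line (41.2% and 5.88%, where 8.53% of all genes were called higher and 10.8% lower). In the Sox2-cKO line 9 were called higher and none lower (52.9% and 0%, where 7.79% of all genes were called higher and 7.32% lower). The median log2 difference of the list was 0.95 and 1.73 in these lines, and that of all genes was 0.00. In the Nanog-cKO line 3 were called higher and none lower, at 17.6% against the 2.80% of all genes, and the list median was 0.24 (0.00 with genes at 0 in a group set to their bound).

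Ascl2, Cdkn1c, Dusp8, Lsp1, Phlda2, Slc22a18 and Th rose with Dox in both the Oct4-cKO and the Sox2-cKO lines. Phlda2, an imprinted gene known to restrain placental growth, went from 251 and 261 to 9544 and 9704 normalized counts in the Oct4-cKO line (log2 fold change 5.23 ± 0.07, adjusted p of limma 3.6e-18). Cdkn1c, which encodes the cyclin-dependent kinase inhibitor p57, went from 838 and 842 to 11149 and 10926 (3.71 ± 0.07, adjusted p of limma 2.5e-16). Ascl2, a transcription factor needed for the spongiotrophoblast, rose from 143 and 121 to 531 and 498. Their starts lie 353 kb (Th) to 924 kb (Phlda2) from that of H19 on the side of Igf2, and 117 kb (Lsp1) to 482 kb (Dusp8) on the other side. Mrpl23, the nearest listed neighbour at 45.3 kb, was not called, with log2 differences of 0.12, -0.25 and 0.24 in the Oct4-, Sox2- and Nanog-cKO lines. Neither was Nap1l4, the farthest at 971 kb, with 0.01, 0.00 and -0.13. In the Nanog-cKO line Cdkn1c and Phlda2 stayed within the fold change threshold too, with log2 differences of 0.51 and -0.31. The 3 called there were Dusp8, Lsp1 and Tnni2, and Lsp1 and Tnni2 were at 0 without Dox and at no more than 7.03 normalized counts with it.

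**Figure D5:**
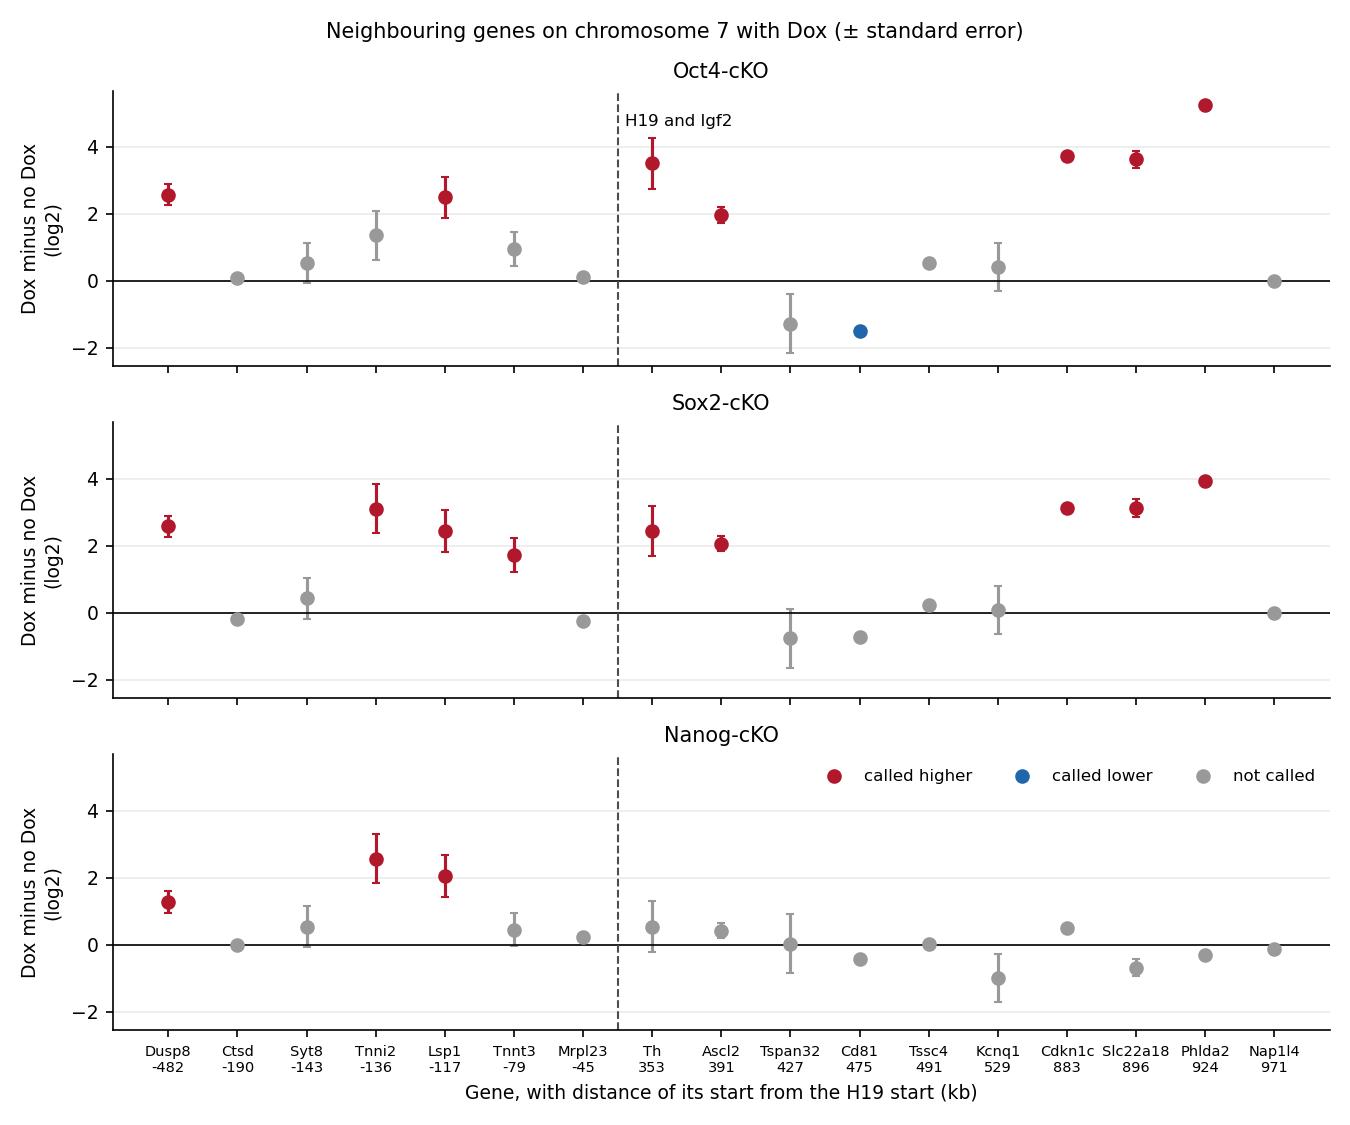
Log2 difference of 17 neighbouring genes between Dox-treated and untreated L-EPSCs of the 3 lines, in chromosome order with the distance of each start from the H19 start in kb. Points are limma estimates with standard errors, coloured by call, and the dashed line marks where H19 and Igf2 lie. Phlda2 reaches 5.23 in the Oct4-cKO line and is at -0.31 in the Nanog-cKO line.

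At the conversion to L-EPSCs the median of the neighbours was 0.15, -0.04 and -0.14 in the Oct4-, Sox2- and Nanog-cKO lines. In the Oct4-cKO line 3 were called higher and 3 lower, in the Sox2-cKO line 2 and 2, and in the Nanog-cKO line 3 and 2. These counts are 11.8% to 17.6% of the 17, near the shares of all genes, of which 13.0%, 7.99% and 12.2% were called higher and 15.4%, 11.6% and 14.7% lower. Cdkn1c rose in the Oct4-cKO line, with a log2 fold change of 0.90. Phlda2 fell by 0.62 in both the Oct4-cKO and the Nanog-cKO lines. In J1, 15 neighbours were tested and Phlda2 rose from 13.5 and 17.5 in ESCs to 83.7 and 63.6 in D-EPSCs and 329 and 292 in L-EPSCs. Of the 15, 4 were called higher and none lower in D-EPSCs against ESCs, 3 and 2 in L-EPSCs against ESCs, and 1 and 1 in L-EPSCs against D-EPSCs. The higher calls are 26.7%, 20% and 6.67% of the neighbours, beside 10.8%, 8.80% and 4.80% of all genes, and the lower calls 0%, 13.3% and 6.67%, beside 9.98%, 11.5% and 8.58%.

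The IGF axis comprises the ligands, their receptors, the binding proteins that hold IGFs in the extracellular space, and the adaptors within the cell. Of the 23 other genes of this list 21 were tested in the tet-off table. With Dox 1 was called higher and 5 lower in the Oct4-cKO line, 5 and 4 in the Sox2-cKO line, and 3 and 4 in the Nanog-cKO line. The higher calls are 4.76%, 23.8% and 14.3% of the list, beside 8.53%, 7.79% and 2.80% of all genes, and the lower calls 23.8%, 19% and 19%, beside 10.8%, 7.32% and 2.59%. The list medians were 0.00, 0.05 and 0.23 (0.00, 0.00 and 0.06 with genes at 0 in a group set to their bound). Igfbp2, which binds IGF2, fell in every line with Dox. It went from 18114 and 18230 to 1573 and 1621 normalized counts in the Oct4-cKO line (-3.51 ± 0.04, adjusted p of limma 2.5e-19), from 13624 and 13211 to 2151 and 2288 in the Sox2-cKO line, and from 8055 and 8287 to 3016 and 2890 in the Nanog-cKO line. Igfbp7 also fell in all 3 lines, and Grb14, an adaptor that restrains insulin receptor signalling, rose in all 3. Of the receptors, Igf1r, the signalling receptor for IGF1 and IGF2, fell in the Oct4-cKO line (from 308 and 305 to 107 and 83.3), as did Igf2r, the receptor that clears IGF2 and is itself imprinted (-1.04).

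At the conversion Igfbp2 and Igfbp4 rose in all 3 tet-off lines, while Igf2bp1, an mRNA-binding protein that binds Igf2 RNA, and the adaptor gene Irs4 fell in all 3. Igfbp2 went from 6186 and 6353 in Oct4-cKO ESCs to 18114 and 18230 in L-EPSCs (1.54 ± 0.04, adjusted p of limma 9.5e-15), the opposite direction to its change with Dox. In all, 4 genes of the list were called higher and 5 lower in the Oct4-cKO line, 3 and 7 in the Sox2-cKO line, and 5 and 8 in the Nanog-cKO line. The higher calls are 19%, 14.3% and 23.8% of the list, where 13.0%, 7.99% and 12.2% of all genes were called higher, and the lower calls are 23.8%, 33.3% and 38.1%, where 15.4%, 11.6% and 14.7% were called lower. In J1, 19 genes were tested, of which 7 were called higher and none lower in D-EPSCs against ESCs, 3 and 5 in L-EPSCs against ESCs, and 1 and 7 in L-EPSCs against D-EPSCs. The higher calls are 36.8%, 15.8% and 5.26% of the list in these comparisons, beside 10.8%, 8.80% and 4.80% of all genes, and the lower calls 0%, 26.3% and 36.8%, beside 9.98%, 11.5% and 8.58%. The binding proteins Igfbp3, Igfbp5, Igfbp6 and Igfbp7 fell in J1 L-EPSCs against both other states, Igfbp5 from 416 and 409 in ESCs to 56.5 and 48.3. The fibroblast marker sum, given above, was lowest in the same libraries, and its part in these values was not tested.

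The imprint control list holds 14 genes that set, protect or remove DNA methylation or bind control regions, and all 14 were tested. With Dox 6 fell in the Oct4-cKO and 6 in the Sox2-cKO line, 42.9% of the list in each, beside 10.8% and 7.32% of all genes, and 1 and 2 rose (7.14% and 14.3%, beside 8.53% and 7.79%). In the Nanog-cKO line 1 rose (7.14%, beside 2.80%) and none fell (2.59% of all genes did). The list medians were -0.79, -0.53 and 0.02. Dppa3, Tet1, Tet2, Trim28 and Zfp57 fell in both the Oct4-cKO and Sox2-cKO lines. Tet1, which oxidises methylcytosine, went from 3579 and 3563 to 432 and 506 normalized counts in the Oct4-cKO line (-2.93 ± 0.05, adjusted p of limma 1.4e-16). Zfp57, which binds methylated control regions and recruits Trim28, went from 2265 and 2133 to 309 and 334 (-2.77 ± 0.05, adjusted p of limma 1.1e-16). Tet3 rose in both lines, by 1.29 and 1.45 on the log2 scale. Ctcf itself was not called with Dox in any line, with log2 differences of 0.00, -0.34 and 0.17 in the Oct4-, Sox2- and Nanog-cKO lines. Dppa3, which protects methylation in the early embryo, rose in the Nanog-cKO line, from 779 and 765 to 2939 and 3090.

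At the conversion 9 of the 14 genes (64.3%) were called lower in the Oct4-cKO line, 7 (50%) in the Sox2-cKO line and 7 (50%) in the Nanog-cKO line, where 15.4%, 11.6% and 14.7% of all genes were. The list medians were -0.67, -0.61 and -0.77, against 0.00 for all genes. Called higher were 1 (7.14%), 1 (7.14%) and 2 (14.3%), where 13.0%, 7.99% and 12.2% of all genes were. Dnmt3b, a de novo DNA methyltransferase, Tet1, Tet2 and Zfp57 fell in all 3 lines. Dppa3 rose in the Oct4-cKO line from 43.9 and 52.2 to 850 and 823 (4.10 ± 0.13, adjusted p of limma 3.3e-13). It also rose in the Nanog-cKO line, by 2.54 on the log2 scale, and was not called in the Sox2-cKO line (0.26). In J1, 4 were called higher and 2 lower in D-EPSCs against ESCs, 3 and 3 in L-EPSCs against ESCs, and none and 2 in L-EPSCs against D-EPSCs. As shares the higher calls are 28.6%, 21.4% and 0%, beside 10.8%, 8.80% and 4.80% of all genes, and the lower calls 14.3%, 21.4% and 14.3%, beside 9.98%, 11.5% and 8.58%. Dnmt3a and its cofactor gene Dnmt3l rose in both kinds of J1 EPSC, Dnmt3l from 397 and 412 in ESCs to 1797 and 1789 in D-EPSCs and 2606 and 2572 in L-EPSCs. In the tet-off lines Dnmt3l was lower in untreated L-EPSCs than in ESCs, by -0.54, -1.33 and -2.59 in the Oct4-, Sox2- and Nanog-cKO lines, the first of which was not called.

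Igf2 overlaps the antisense gene Igf2as, which lies on the plus strand, and the strand setting of the counting is not stated, so reads of the 2 genes could be confused. Igf2as held between 0 and 114 normalized counts in the 24 libraries, at most 4.11% of the reads of Igf2 in the same library. It was highest in the Oct4-cKO line with Dox (114 and 102), as Igf2 was. Ins1, Ins2, Kcnq1ot1 and Nctc1, which belong to the lists, are not listed in either table and were not analysed here.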

How the data were processed

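Poly(A) RNA of 24 libraries was sequenced. The authors trimmed reads with Trim Galore 0.6.4, aligned them to NCBIM37 (mm9) with STAR 2.7.9a and counted them per gene with HTSeq 0.11.2. They deposited these counts divided by DESeq2 size factors (normalized counts, a signal with no fixed total) in 2 tables, which were normalized separately. The submitters' processing notes list DESeq2 as 4.1.1. In each library all values were whole multiples of 1 read within 0.01 reads, so reads were recovered, 10807631 to 15069899 per library.

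Groups were taken from the sample labels. Differences were fitted with limma 3.58.1 (trend, R 4.3.3) on log2(normalized count + 1), over genes with at least 2 reads in a table (21533 in J1, 24007 in tet-off), with all groups of a table in 1 fit. A pseudocount of 1 understates the change of low genes. A gene was called at a Benjamini-Hochberg adjusted p under 0.05 over all genes tested and a log2 fold change beyond 0.6, or beyond 1 for Dox. The shares and medians of all genes include genes with few reads. A mean of at least 10 normalized counts was reached by 14255 genes in J1 and 14173 in tet-off. List genes were not matched to all genes by level. The code was tested on simulated data. edgeR 4.0.16 and DESeq2 1.42.0 on the recovered reads, other scalings, pseudocounts, filters and thresholds, a replicate block and leaving out each replicate were the alternatives. Gene lengths and positions came from the NCBIM37 annotation by gene identifier.

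H19 and Igf2, the 3 gene lists and the marker lists were chosen with earlier results of these data known. Named are these 2 genes, the targeted genes, the 3 genes most like each, and list genes called in at least 1 comparison, with values for those that changed most. Other values of list genes, such as those of Ctcf, Mrpl23 and Nap1l4 with Dox, were picked after they were seen. Replicates differed by more than sampling noise. Same-numbered libraries did not deviate together (highest correlation 0.0402).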

Additional observations from a re-analysis of the deposited data

Results flagged for a closer look

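H19 moved in opposite directions at the conversion of ESCs to untreated L-EPSCs, with a log2 difference of 4.85 in the Oct4-cKO line, -0.37 in the Sox2-cKO line and -0.35 in the Nanog-cKO line. The Nanog-cKO difference was smaller than 2 standard deviations between replicates, and it was -0.10 without the first ESC library. Each library of the first line lay on the other side of its ESCs from those of the other lines, and the difference between the lines was not tested, since H19 was chosen on these values.

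Some genes of the lists were called in opposite directions in 2 lines, at most 3 of the 52 tested for a pair of lines. They are given with the interaction term of the limma fit, adjusted over all genes. They were picked for their opposite calls in the same fit, so a low adjusted p follows largely from that choice and is no separate support. The share of all genes called in opposite directions was not computed. At the conversion Dusp8 differed by 3.18 on the log2 scale between the Oct4-cKO and Sox2-cKO lines (adjusted p 7.85e-05). Grb10, an imprinted adaptor gene that restrains growth, differed by 4.62 between the Oct4-cKO and Nanog-cKO lines (adjusted p 1.64e-12) and by 4.25 between the Sox2-cKO and Nanog-cKO lines (adjusted p 6.33e-12), with the lower value in the Nanog-cKO line. Igfbp3 differed by -1.85 (adjusted p 3.69e-05) and -1.58 (adjusted p 0.00018) in the same pairs, with the higher value in the Nanog-cKO line. With Dox, Dppa3 differed by -4.27 between the Oct4-cKO and Nanog-cKO lines (adjusted p 2.95e-11) and by -3.68 between the Sox2-cKO and Nanog-cKO lines (adjusted p 3.2e-10). Between the latter lines Igfbp5 differed by 3.92 (adjusted p 8.08e-06) and Irs1 by -2.85 (adjusted p 0.000855).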

How the results depend on the processing

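Other filters, fitting the groups of a comparison alone and the replicate block leave a difference of group means unchanged by construction. Over the alternatives that kept all libraries, these included, 175 of 180 differences of H19 and Igf2 moved little. Their shift was less than the moderated residual standard deviation of the gene in the main limma fit. None changed sign. The other 5 came from a pseudocount of 10, which gave -3.64 (Igf2, conversion, Sox2-cKO), -2.08 (Igf2, conversion, Nanog-cKO), 3.40 and 3.02 (Igf2, Dox, Sox2-cKO and Nanog-cKO) and 5.10 (H19, Dox, Nanog-cKO), as it shrinks changes of low genes by construction. Leaving out 1 library gave H19 -1.99 to -1.87 (J1 L-EPSC against ESC), -2.21 to -2.09 (against D-EPSC) and -0.61 to -0.10 (conversion, Nanog-cKO), and Igf2 -0.41 to -0.27 (D-EPSC against ESC), -2.13 to -1.99 (L-EPSC against ESC), -3.92 to -3.55 (conversion, Sox2-cKO) and 3.31 to 3.67 (Dox, Sox2-cKO). The lone library left in a group is then assumed to vary like the other groups. Of the genes of the 3 lists, 17 (D-EPSC against ESC), 19 (L-EPSC against ESC), 12 (L-EPSC against D-EPSC), 21 (Dox, Oct4-cKO) and 11 (Dox, Nanog-cKO) were called. Without a fold change threshold these counts were 27, 36, 31, 32 and 30, with a threshold of 1 the second was 12, and with a pseudocount of 10 the last was 7. Without 1 library the second was 12 to 15, lowest without the second J1 ESC library, and the last was 6 to 10, lowest without the first untreated Nanog-cKO L-EPSC library. By Spearman's rho 1 of the 3 genes most like H19 and 1 of those most like Igf2 stayed among the first 3. As a mean of log2 values in place of a sum, fibroblast markers were higher in 3 of the 9 comparisons, not 1, and primitive endoderm markers in 5, not 3. Taking the longest transcript as the length changed all ratios of H19 to Igf2 by 1 factor. With the replicate block the H19 differences with Dox stayed at 3.62, 3.50 and 5.23. All 18 differences had to stay the same, since each block holds 1 library of every group. None of the 9 list counts changed by more than 1.5-fold, while the replicate numbers share only a number (no correlation over 0.1). Without a fold change threshold 5933 to 10579 of all genes were called in a comparison, in place of 1293 to 6822.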
